A study of Mus musculus with 8 samples.

Results

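The genes described here are 10 genes of antigen presentation, taken as named rows of the 32285 genes in 4 deposited count matrices. They are the class I heavy chains H2-K1 and H2-D1 with their light chain B2m, the peptide-loading genes Tap1, Tap2 and Tapbp, and the class II genes H2-Aa, H2-Ab1 and H2-Eb1 with the invariant chain Cd74. The members were named by gene, not by a measured value. They were measured by single-nucleus Multiome sequencing of the striatum, the input nucleus of the basal ganglia, in which RNA and accessible DNA are read from the same nucleus. The animals were 32 mice of 8 inbred strains, 12 weeks old, in 4 batches, and each batch pooled the nuclei of 8 mice, 1 of each strain. The strains were C57BL/6, 129S1/SvImJ, WSB/EiJ, PWK/PhJ, A/J, NZO/HlLtJ, CAST/EiJ and NOD/ShiLtJ, and the labels name no treatment. Each batch held 4 males and 4 females, and sex was not modelled because no table used here gives the sex of a mouse. The design text and the deposited table name different C57BL/6 substrains, so the strain is called C57BL/6 throughout.

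Class I molecules carry peptides made inside a cell to its surface, where CD8 T cells read them. The heavy chain is held in place by beta-2 microglobulin, the product of B2m, and it is loaded with peptides that the TAP transporter, made of the Tap1 and Tap2 products, pumps into the endoplasmic reticulum. Tapasin, the product of Tapbp, holds the empty class I molecule next to that transporter. Class II molecules carry peptides taken up from outside and are made by specialised cells such as macrophages, dendritic cells and B cells, with the Cd74 product as their chaperone. In the brain, class I RNA is known from endothelium and microglia, and class II RNA is known from cells of the brain's borders. The H2 region differs strongly between inbred strains. As background, C57BL/6 and 129S1/SvImJ carry b-type H2 haplotypes, the type of the reference genome, and the other strains here carry others.

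Of the members, 8 lie on chromosome 17 within 1348020 bases (GRCm38.p6). H2-K1 spans chr17:33996012-34000619, Tapbp spans chr17:33919478-33929290, and H2-D1 lies at the other end of the cluster at chr17:35263094-35267497. Tap1 (chr17:34187556-34197225) and Tap2 (chr17:34204479-34216321) lie between them, beside H2-Ab1 (chr17:34263227-34269418), H2-Aa (chr17:34282744-34287823) and H2-Eb1 (chr17:34305867-34316674). B2m lies elsewhere, at chr2:122147687-122153082, and Cd74 is also outside the H2 region. H2-K1 and H2-D1 are close paralogs of each other and of the H2-Q genes, so reads they share may have been split or dropped in counting, and their values are uncertain to that extent. For strains whose haplotype differs from the reference, reads lost in alignment and lower expression cannot be told apart from these counts.

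The RefSeq promoter table (GRCm38.p6) had entries for 7 members: H2-K1, H2-D1, B2m, Tap1, Tapbp, H2-Aa and H2-Eb1. The windows below are shown because the class I genes and B2m share spaced short matches upstream of their starts, and H2-Aa holds one of them too. Tap1, Tapbp and H2-Eb1, the other members with an entry, held none of these windows. Tapbp was highest in endothelium, as the class I genes and B2m were, and H2-Aa in macrophages. Any relation of the windows to levels was not tested. Capitals mark the matched ends, TGACG and ATTGG (the reverse complement of CCAAT), and all sequences are read 5′ to 3′ on the strand of the gene. The windows are chr17:34000359-34000388 (minus strand), chr17:35262993-35263022 (plus), chr2:122147609-122147638 (plus) and chr17:34287867-34287897 (minus).
H2-K1: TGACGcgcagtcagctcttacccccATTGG
H2-D1: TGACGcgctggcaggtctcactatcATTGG
B2m: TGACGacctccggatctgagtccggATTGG
H2-Aa: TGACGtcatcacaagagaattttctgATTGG

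The bases between the marked ends numbered 20 in H2-K1, H2-D1 and B2m and 21 in H2-Aa. H2-K1 and H2-D1 were identical at 23 of 30 bases, whereas B2m matched H2-K1 at 13 and H2-D1 at 12 of 30. TGACG followed after 15 to 25 bases by ATTGG, on either strand, was found in the 250 bases upstream of 125 of 32851 listed starts (0.381%). On its own TGACG was found in 17.8% and CCAAT in 33.8% of those upstream stretches, both strands counted. The spacing was set after these sequences were read, and a match is a description of letters.

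Among the 7 members with an entry, a second pair of matches was found in H2-K1 and H2-D1. Here capitals mark GGGGA and TCCC with 1 base of any kind between them and the C that follows, and TTTCNNTTC, the reverse complement of GAANNGAAA, at chr17:34000429-34000458 (minus strand) and chr17:35262923-35262952 (plus).
H2-K1: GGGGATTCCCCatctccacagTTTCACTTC
H2-D1: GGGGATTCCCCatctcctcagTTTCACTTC

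These windows were identical at 29 of 30 bases. The same arrangement was found at 5 of the 32851 starts (0.0152%), which belong to H2-D1, 2 starts of H2-K1, H2-Q6 and H2-Q7. GGGGA and TCCC so spaced were found alone upstream of 0.289% and GAANNGAAA of 6.31% of the starts, both strands counted. The H2-K1 windows lie within the annotated span of the gene, upstream of the listed starts. The start lay inside a deposited accessible region, each 1000 bases wide, for 6 of the 7 members with an entry (all but Tapbp), against 48.4% of all listed starts. The list holds 291715 regions for all batches together and gives no signal per strain.

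The annotated nuclei numbered 55672 in 18 clusters, with a median of 3232 to 4931 UMIs (unique molecules counted) per nucleus in a batch. Batch 3 was the shallowest, with 43538698 counts in its annotated nuclei against 62604869 to 77698312 in the others. Of the barcode sequences, 1517 occurred in more than 1 batch, and 3048 nuclei carried such a sequence. The cluster names are the authors' and were checked against marker lists. The summed level of 6 microglia markers was highest in the cluster named macrophage (9009 CPM, counts per 1000000 counts of the cluster), and none of those markers was at 0 there. The cluster is called by the authors' name, although its leading markers are those of microglia. The endothelium list was highest in the cluster named endothelium (8904 CPM), where 6 mural markers summed to 2894 CPM as well.

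Counts of the members were low. B2m had 8209 UMIs in 5069 nuclei (9.11% of nuclei, exact 95% interval 8.87 to 9.35%), H2-D1 had 3090 UMIs in 1936 nuclei, and H2-K1 had 1889 UMIs in 1328 nuclei. Tapbp had 2545, Tap2 had 795 and Tap1 had 152 UMIs. The class II genes had 68 (H2-Aa), 155 (H2-Ab1), 49 (H2-Eb1) and 186 (Cd74) UMIs over the whole series. Intervals on shares of nuclei cover counting error only. Endothelium made up 1.27 to 1.78% of the nuclei of a mouse on average by strain, yet it held 43.4% of the H2-K1 UMIs, 47.8% of the H2-D1 UMIs and 34.9% of the B2m UMIs. Macrophages held 59.7% of the Cd74 UMIs and 47.1% of the H2-Aa UMIs. Counts this low per mouse limit the precision of values that follow. How much of the spread over mice comes from them was not tested.

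The class I genes were highest in endothelium and next highest in macrophages, among clusters with values from more than 2 mice. Levels here are means over mice with 10 or more nuclei in a cluster, given as a description with no test because the clusters were made from the same counts. In endothelium (n = 29 mice) H2-K1 was at 191 ± 95.7 CPM (SD), H2-D1 at 326 ± 132 CPM and B2m at 645 ± 323 CPM. In macrophages (n = 32) the values were 53.6 ± 36.9 CPM for H2-K1, 77.7 ± 42.3 CPM for H2-D1 and 366 ± 132 CPM for B2m. Within mice, endothelium was above macrophages in 28 of 29 for H2-K1, in 28 of 29 for H2-D1 and in 22 of 29 for B2m, and the ranges of the clusters overlapped for all of them.

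Below these clusters the order of neighbours was mostly within their spread. H2-K1 in astrocytes was at 29.5 ± 19.0 CPM, below macrophages in 25 of 32 mice. Ependyma (26.2 ± 20.7 CPM, n = 12) and mural cells (21.4 ± 36.1 CPM, n = 20) followed and did not differ from astrocytes beyond the spread over mice. B2m stood at 83.0 ± 58.0 CPM in mural cells, 72.5 ± 29.1 CPM in astrocytes and 33.7 ± 10.1 CPM in oligodendrocytes. The neuron clusters had the lowest mean B2m and H2-K1 among named clusters with values from more than 2 mice. For H2-D1 the Chat+ interneurons (13 ± 14.5 CPM, n = 3) stood above oligodendrocytes (10.1 ± 4.86 CPM) within their spread. B2m stood at 9.38 ± 2.01 CPM in the Drd1+ projection neurons of the direct pathway and at 9.85 ± 2.23 CPM in the Drd2+ neurons of the indirect pathway. H2-D1 in Drd1+ neurons was at 2.72 ± 1.32 CPM and H2-K1 at 1.63 ± 0.81 CPM.

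The share of nuclei with a UMI depends on depth, so it was also computed with each nucleus thinned to 1000 UMIs. B2m was then found in 40.9% of endothelial nuclei (65.7% as observed, median 3821 UMIs) and in 27.5% of macrophage nuclei (36.2% as observed, median 1432 UMIs). Astrocytes gave 6.81% after thinning. Drd1+ neurons gave 5.87% as observed, at a median of 6505 UMIs, and 0.99% after thinning. Markers of other cells were counted in Drd1+ neurons too. There the microglia list summed to 79.1 CPM (9009 CPM in macrophages) and the oligodendrocyte list to 1035 CPM (19013 CPM in oligodendrocytes). A UMI of a member in a neuron is therefore not shown to be expression by that neuron, and the part of RNA from other cells in the neuron values was not tested. H2-D1 was found in 27.9% and H2-K1 in 16.6% of thinned endothelial nuclei, and neither passed 6.94% in thinned macrophages.

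The peptide-loading genes followed the same 2 clusters with smaller gaps. Tapbp was at 88.6 ± 40.5 CPM in endothelium and 62.9 ± 23.8 CPM in macrophages, with endothelium higher in 21 of 29 mice. Tap2 was at 36.6 ± 24.8 CPM in endothelium and 33.5 ± 20.9 CPM in macrophages, with endothelium higher in 17 of 29 mice. Those means differ by less than their spread. Tap1, the partner of Tap2, was at 12.9 ± 10.1 CPM in macrophages and 7.79 ± 6.77 CPM in endothelium, and 6 of 32 and 9 of 29 mice had none of its UMIs there. Among the class I and loading genes, only Tapbp had more UMIs in Drd1+ neurons (625) than in endothelium (394). The class II genes, with few UMIs, also had more in Drd1+ neurons. That cluster held 15395 nuclei against 851 in endothelium, and the Tapbp level was lower there, at 6.25 ± 2.05 CPM. By count in Drd1+ neurons, Tapbp stood above H2-K1 (162 UMIs) and H2-D1 (278 UMIs) and below B2m (980 UMIs). These CPM values are not divided by gene length, so levels of different genes are not compared further.

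**Figure D1:**
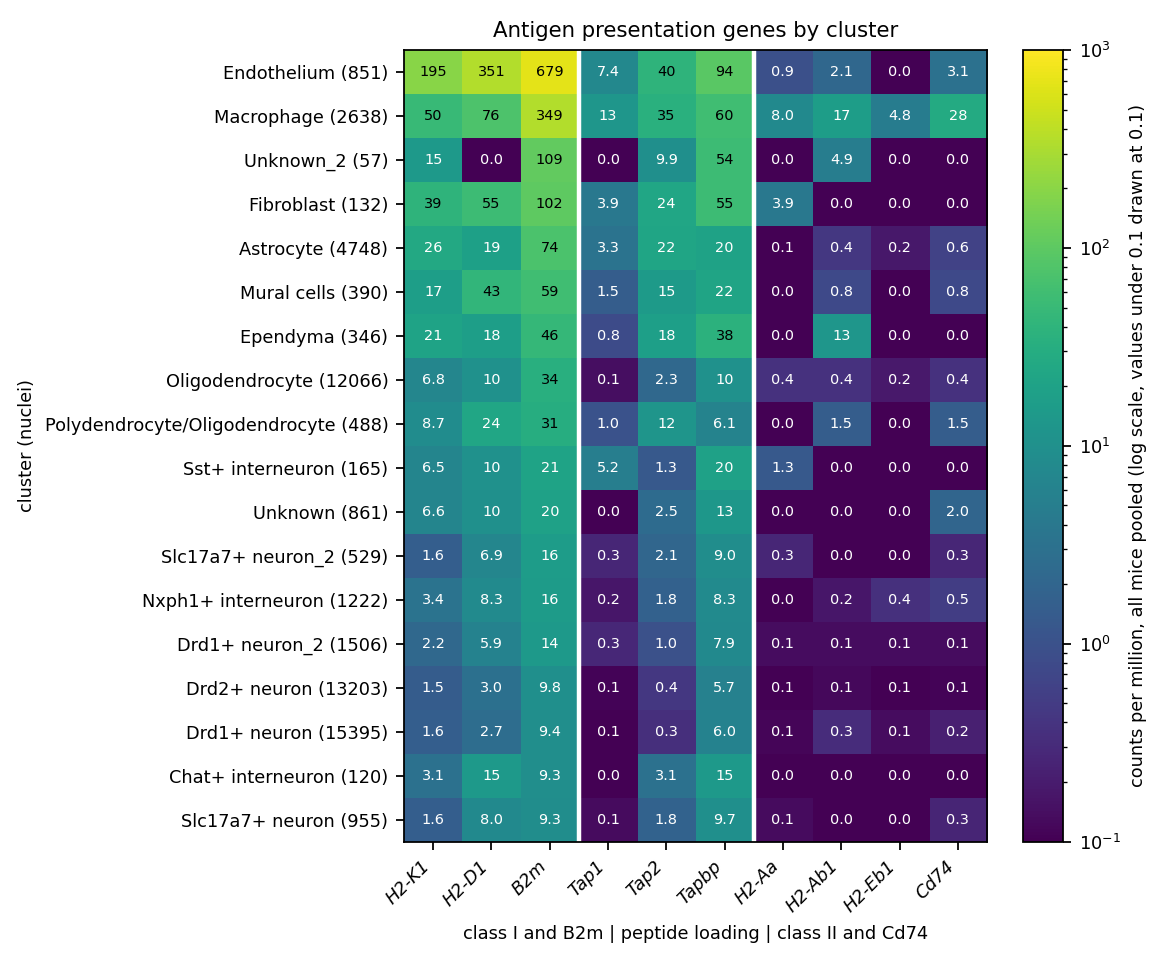
Level of each gene (columns, grouped by role) in each of the 18 clusters (rows, with the number of nuclei), as CPM with all mice pooled, on a log colour scale. The class I and loading genes are highest in endothelium or macrophages, with B2m at 679 CPM in pooled endothelium, and the class II genes are highest in macrophages.

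Over the 18 clusters, the genes most like the class I profile (the mean log2(CPM + 1) of H2-K1, H2-D1 and B2m) were Pfn1 (Pearson r = 0.938), Cuta (0.933), Slc35d2 (0.932), Gbp7 (0.928) and Il10rb (0.928), of 15703 genes that reached 10 CPM in some cluster. Pfn1 encodes the actin-binding protein profilin, Gbp7 an interferon-inducible GTPase, and Il10rb a receptor chain for IL-10 family cytokines. All of these peaked in endothelium. The class II profile was most like Tlr2 (0.963), a receptor for bacterial lipoproteins, F630028O10Rik (0.957), Gm28187 (0.957), Gm34280 (0.956) and Csf2rb2 (0.951), which peaked in macrophages. The points share libraries and the same clustering, so no p-value is given.

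Class II UMIs were found in few nuclei, at depths where a count of 0 does not show that a nucleus lacks the RNA. The 4 genes had no UMI in 55463 of the 55672 nuclei, and 182 nuclei had a single UMI. In macrophages Cd74 averaged 27.8 ± 49.4 CPM over 32 mice with 18 mice at 0, H2-Ab1 17.3 ± 23.2 CPM with 13 at 0, H2-Aa 8.52 ± 20.9 CPM with 25 at 0, and H2-Eb1 4.89 ± 14.7 CPM with 27 at 0. H2-Aa was found in 0.379% of macrophage nuclei (median 1432 UMIs) and in 0.0325% of Drd1+ neurons (median 6505 UMIs), a cell type not known to make class II. In the 346 ependymal nuclei, H2-Ab1 had 15 UMIs in 13 nuclei (3.76%), while H2-Aa, H2-Eb1 and Cd74 had 0, which allows a share of up to 0.867% of nuclei with a UMI of each and sets no limit on nuclei that express it. Of the 12 mice with 10 or more ependymal nuclei, 8 had none.

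Of the 458 class II UMIs, 235 (51.3%) came from 11 nuclei with 8 or more each; no nucleus held between 5 and 7. That limit was set after these values were seen, so the nuclei are described only. Without them the pooled macrophage level of Cd74 went from 27.8 to 6.04 CPM, H2-Ab1 from 16.8 to 7.80 CPM, H2-Aa from 8.02 to 0.503 CPM and H2-Eb1 from 4.76 to 0.251 CPM. Of the 11, 9 lay in the macrophage cluster, 1 among Drd1+ neurons and 1 in endothelium.

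The nucleus with the most class II UMIs, 44, was annotated as a Drd1+ neuron of a 129S1/SvImJ mouse in batch 4. It held 8 H2-Aa, 15 H2-Ab1, 8 H2-Eb1 and 13 Cd74 UMIs among 7547 UMIs, with 1 UMI of the Drd1+ neuron markers and 3 of the microglia markers. The endothelial nucleus, of a PWK/PhJ mouse, held 20 class II UMIs, 13 UMIs of B cell markers (Cd79a and Cd79b among them) and 34 of endothelium markers. In all, 5 of the 11 held Cd79a, which encodes a chain of the B cell receptor, and 3 of those lay in strains other than C57BL/6 and 129S1/SvImJ. Whether such nuclei are doublets, B cells or border cells within other clusters was not tested.

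H2-Eb1, the beta chain of the E class II molecule, was unevenly spread over these nuclei, which share mice and are no replicates of a strain. Its own UMIs counted toward the limit of 8, so its spread is partly set by how the nuclei were picked. A C57BL/6 nucleus with 8 class II UMIs, 3 of them H2-Eb1, reached the limit only through H2-Eb1. It was present in 6 of the 7 from C57BL/6 and 129S1/SvImJ, with 25 of their 164 class II UMIs (15.2%), but those 7 nuclei came from 4 mice and the 6 from 3 mice. It was present in 1 of the 4 from other strains, which came from 4 mice, with 1 of 71 (1.41%). Of those 4 nuclei, 3 held Cd79a, against 2 of the 7. Over all nuclei H2-Eb1 had 19 UMIs in C57BL/6, 15 in 129S1/SvImJ, 5 in NOD/ShiLtJ and 2 in each other strain. All 15 of 129S1/SvImJ came from the batch 4 mouse, and of the 19 of C57BL/6 the batch 3 and 4 mice gave 7 and 10. Without the 11 nuclei the counts were 6 in C57BL/6, 3 in 129S1/SvImJ, 5 in NOD/ShiLtJ and 1 or 2 in the others. Cd74, outside the H2 region, had 42 in C57BL/6, 45 in 129S1/SvImJ, 25 in A/J, 22 in CAST/EiJ and 4 in WSB/EiJ, its lowest strain.

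**Figure D2:**
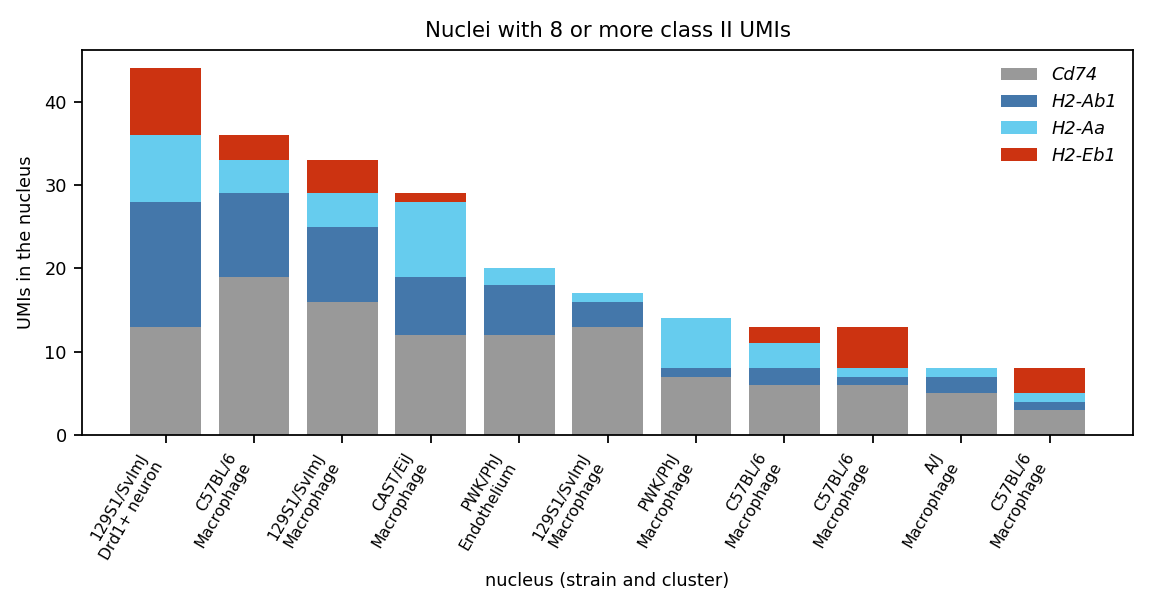
UMIs of Cd74, H2-Ab1, H2-Aa and H2-Eb1 (stacked bars, vertical axis) in each of the 11 nuclei with 8 or more class II UMIs, labelled by strain and cluster. H2-Eb1 appears in 6 of the 7 bars of C57BL/6 and 129S1/SvImJ, which come from 4 mice, and, with 1 UMI, in 1 of the 4 others.

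Class II UMIs in macrophages were unevenly spread over the mice of a strain. Macrophage Cd74 UMIs in batches 1 to 4 were 0, 1, 9 and 26 in C57BL/6, and 14, 0, 0 and 16 in 129S1/SvImJ. In CAST/EiJ they were 12, 4, 0 and 0, and in PWK/PhJ 0, 7, 0 and 0. A/J had 0, 6, 4 and 1 and NZO/HlLtJ 0, 0, 7 and 1. NOD/ShiLtJ had 3 in a single batch, and WSB/EiJ had none in 297 macrophage nuclei. High mice were thus found in several strains, each beside a mouse of the same strain at 0. Cd74 was the only class II gene with enough counts for a test in the main analysis, in macrophages and over all nuclei, and it was called in neither (adjusted p = 0.401 and 0.259, edgeR quasi-likelihood test). With no filter on low counts, the strain term in macrophages was called for H2-Aa (adjusted p = 0.000349, edgeR) and H2-Eb1 (0.00476, edgeR) but not for H2-Ab1 (0.115) or Cd74 (0.825), beside 6.7% of genes, and over all nuclei for H2-Eb1 (0.0312) beside 43.5% of genes. These rest on few UMIs, 32 of H2-Aa and 19 of H2-Eb1 in macrophages, of which 2 and 1 lay outside the 9 macrophage nuclei with 8 or more class II UMIs, and macrophages of NOD/ShiLtJ, NZO/HlLtJ and WSB/EiJ had none of H2-Aa. Border macrophage markers in the cluster ranged by strain from 50.5 CPM (A/J) to 349 CPM (NZO/HlLtJ), with C57BL/6 at 138 CPM, and their part in these values was not tested.

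Strain differences were tested on counts summed per mouse, in edgeR's quasi-likelihood F test of the strain term with batch as a block. A gene was called at a Benjamini-Hochberg adjusted p under 0.05 over all genes tested. Over all nuclei, 6 of the 10 members had enough counts, and H2-K1, H2-D1, B2m and Tapbp were called. That is 4 of 6, beside 66.7% of the 17176 genes tested, so the share of members called was near that of all genes. Within clusters the members were tested 23 times and called 6 times. The calls were H2-K1 and B2m in astrocytes, H2-K1 in macrophages, B2m in endothelium, and Tapbp in Drd1+ neurons and in oligodendrocytes. Over all 9 clusters, 35.2% of the tests of all genes were called. That share includes the second Drd1+ cluster, Nxph1+ interneurons and polydendrocytes, where no member had enough counts. In the clusters with a member tested, the share ran from 3.23% (endothelium) to 61.7% (Drd1+ neurons). Over all nuclei, fewer cells of a type and less RNA per cell cannot be told apart. Values by strain are CPM of a library scaled with TMM, given for batches 1 to 4 in that order, with n = 4 mice unless stated.

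H2-K1 over all nuclei was highest in C57BL/6. Its 4 mice were at 10.3, 15.9, 9.51 and 15 CPM (mean 12.7 ± 3.24 SD). NOD/ShiLtJ followed at 8.47 ± 2.22 CPM, 129S1/SvImJ was at 6.27 ± 0.37 CPM, and A/J (5.55 ± 1.51) and CAST/EiJ (5.46 ± 1.81) were lowest. Only 2 of the other 28 mice, 1 NOD/ShiLtJ and 1 PWK/PhJ, reached the range of C57BL/6. The strain term gave an adjusted p of 0.000639 (edgeR). C57BL/6 exceeded the mean of the other 7 strains by a log2 difference of 0.96 (SE 0.17, adjusted p = 0.00012, edgeR), in a contrast that called 15.2% of genes. This was also called in each of the other settings tried.

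In astrocytes, mean H2-K1 was lowest in NZO/HlLtJ, A/J and CAST/EiJ. NZO/HlLtJ astrocytes were at 5.11, 7.28, 16.5 and 7.53 CPM (mean 9.09 ± 5.03), A/J at 2.68, 8.57, 16.2 and 18.5 CPM (11.5 ± 7.24), and CAST/EiJ at 18.6, 10.5, 22.4 and 18.2 CPM (17.4 ± 4.99). C57BL/6 astrocytes were at 28.5, 50.7, 51.9 and 46.0 CPM (44.3 ± 10.8) and 129S1/SvImJ at 49.7, 21.2, 49.0 and 43.3 CPM (40.8 ± 13.4). PWK/PhJ (43.0 ± 25.4), NOD/ShiLtJ (39.6 ± 16.0) and WSB/EiJ (30.3 ± 20.2) had high means with wide spreads. Every NZO/HlLtJ and A/J mouse lay below every C57BL/6, 129S1/SvImJ, NOD/ShiLtJ and PWK/PhJ mouse, whereas CAST/EiJ overlapped 129S1/SvImJ and NOD/ShiLtJ, and WSB/EiJ overlapped the low strains. Astrocytes of all 32 mice held 291 H2-K1 UMIs together, so the values of the low strains rest on few UMIs per mouse.

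The strain term for H2-K1 in astrocytes gave an adjusted p of 1.71e-06 (edgeR), and 2 of the 5 members tested there were called, beside 21.5% of the 8207 genes. Against the other 7 strains the log2 difference was -1.73 in NZO/HlLtJ (SE 0.39, adjusted p = 0.00191, edgeR; 4.8% of genes called). It was -1.27 in A/J (SE 0.34, adjusted p = 0.0157, edgeR; 3.14% of genes called) and 0.92 in C57BL/6 (SE 0.28, adjusted p = 0.0407, edgeR; 3.36% of genes called). The C57BL/6 difference was not called without replicate 2 (adjusted p = 0.439), 3 (0.0687) or 4 (0.135) or without the batch block (0.0648), nor without the 5% of nuclei with most UMIs (0.115), and the A/J difference not without replicate 1 (0.185) or 2 (0.148). NZO/HlLtJ was called in all 10 other settings. Microglia markers in astrocyte nuclei were lowest in NZO/HlLtJ (118 CPM summed, against 134 to 218 CPM in the other strains). They were highest in CAST/EiJ, which was also low in H2-K1, and their part was not tested.

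H2-K1 in endothelium had another order. C57BL/6 endothelium was at 254.9, 364, 243.5 and 459 CPM (330 ± 102), above all but 2 of the other 25 mice. 129S1/SvImJ, which was among the highest in astrocytes, was lowest here at 134, 96.6, 117 and 82.3 CPM (107 ± 22.8), and the groups did not overlap. The means of the rest lay between 136 ± 68.8 CPM (NZO/HlLtJ) and 215 ± 13.4 CPM (WSB/EiJ, n = 3). The strain term did not reach the threshold (adjusted p = 0.0534, edgeR), but it did so in 3 of 10 other settings: with no filter on low counts (0.00167), in DESeq2 (0.0449) and without the nuclei of 8 or more class II UMIs (0.0373). C57BL/6 against the other 7 strains gave a log2 difference of 1.00 (SE 0.23, adjusted p = 0.0359, edgeR; 0.321% of genes called). That contrast was not called without replicate 2 (adjusted p = 0.301), 3 (0.162) or 4 (0.184), nor without the batch block (0.267) or the 5% of nuclei with most UMIs (0.162).

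In macrophages, C57BL/6 again had the highest mean H2-K1, at 73.2, 132, 93.6 and 139.7 CPM (110 ± 31.6). CAST/EiJ was second at 47.5, 124.6, 100.6 and 21.1 CPM (73.5 ± 47.5), and A/J lowest at 15.4, 38.6, 29.1 and 32.2 CPM (28.8 ± 9.80). C57BL/6 lay above every A/J mouse and overlapped CAST/EiJ, 129S1/SvImJ and WSB/EiJ. The strain term gave an adjusted p of 0.0261 (edgeR), 1 of 5 members tested, beside 24.8% of 3858 genes. C57BL/6 exceeded the other 7 by 1.30 on the log2 scale (SE 0.33, adjusted p = 0.0056, edgeR; 4.9% of genes called). The strain term was lost without replicate 1 (adjusted p = 0.0543), 2 (0.202) or 4 (0.181) and without the batch block (0.0635), and the contrast without replicate 4 (0.18). Both were also lost without the 189 of 2638 macrophage nuclei that held a UMI of a border macrophage, dendritic, B or T cell marker (adjusted p = 0.167 and 0.0995), and the strain term without the nuclei of 8 or more class II UMIs (0.0632). Leaving out those 189 nuclei moved the strain terms of H2-D1 (0.0503 to 0.0279) and B2m (0.05 to 0.0474) past the threshold, so that 2 of the 3 members then tested were called, beside 24.9% of 3679 genes. The dendritic, B and T cell lists were not specific to immune cells here. They were highest in Nxph1+ interneurons (64.3 CPM), mural cells (1227 CPM) and Sst+ interneurons (53.6 CPM), against 24.1, 24.1 and 8.52 CPM in macrophages. A UMI of these lists therefore does not show a nucleus to be of another immune cell. Markers of other cell types in the cluster differed by strain, and their part in these values was not tested. Endothelium markers summed to 372 CPM in CAST/EiJ (252 to 512 over mice), 219 CPM in NZO/HlLtJ and 183 CPM in PWK/PhJ against 55.3 to 76.0 CPM in the other 5 strains. B cell markers were highest in C57BL/6 at 62.6 CPM (5.70 to 226) against 6.51 to 36.8 CPM elsewhere. Astrocyte markers stood at 4877 CPM in 129S1/SvImJ (3831 to 5621) against 659 to 1106 CPM in the other 7 strains. Microglia markers there were at 8505 CPM in 129S1/SvImJ, against 8305 (C57BL/6) to 11311 CPM (WSB/EiJ) in the others. The part of the astrocyte markers in each macrophage comparison that holds 129S1/SvImJ was not tested.

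**Figure D3:**
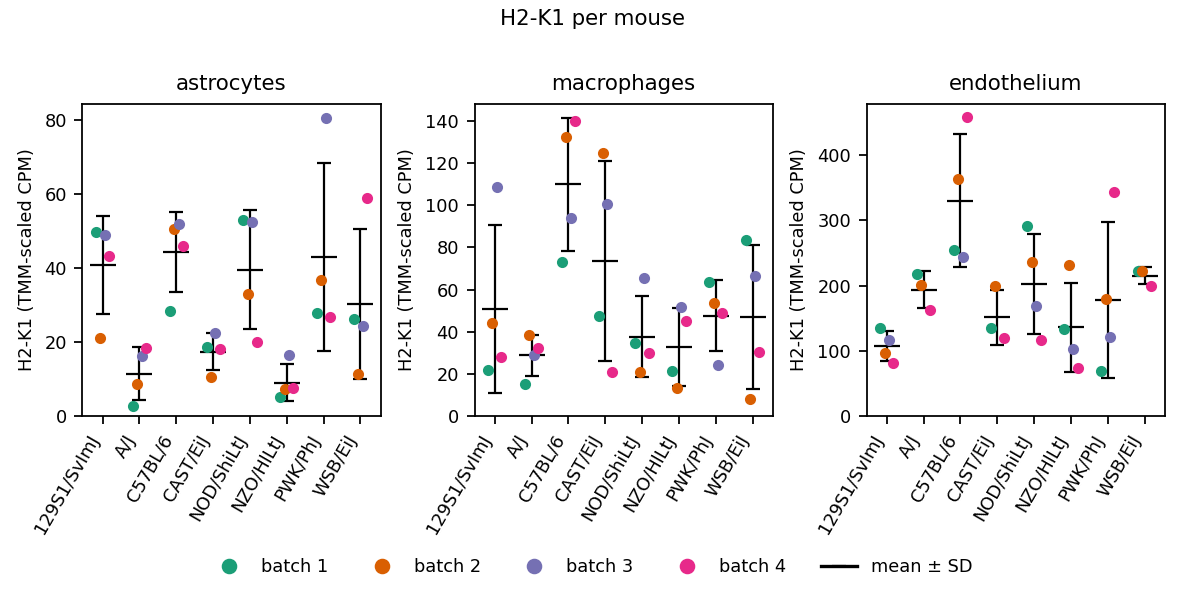
H2-K1 (vertical axis, TMM-scaled CPM) per mouse by strain in astrocytes, macrophages and endothelium, with points coloured by batch and bars for the mean and SD. C57BL/6 has the highest mean in each panel, while 129S1/SvImJ is near it in astrocytes (40.8 against 44.3 CPM) and lowest in endothelium (107 against 330 CPM).

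The strains with b-type haplotypes were also compared with each other and with the rest. C57BL/6 and 129S1/SvImJ together exceeded the other 6 strains in astrocyte H2-K1 by 1.04 on the log2 scale (SE 0.22, adjusted p = 0.000802, edgeR, with 4.48% of genes called), in every setting tried. A high level there was not particular to these strains. PWK/PhJ, among the other 6, had the second highest mean (43.0 CPM), and NOD/ShiLtJ lay close to 129S1/SvImJ, as given above. The lowest means were those of NZO/HlLtJ (9.09 CPM) and A/J (11.5 CPM). Over all nuclei the same contrast gave 0.46 (SE 0.14, adjusted p = 0.0186, edgeR; 20.6% of genes called), lost without replicate 1 (0.0719) or 3 (0.0748), without macrophages (0.0537) and without the batch block (0.0634). In endothelium it gave 0.10 (SE 0.21, adjusted p = 0.924). Between the 2 strains themselves, a comparison added after the values were seen, endothelial H2-K1 was higher in C57BL/6 by 1.61 (SE 0.34, adjusted p = 0.0337, edgeR; 0.1% of genes called), which was not called when any single replicate was left out, without the batch block (0.164) or without the 5% of nuclei with most UMIs (0.105). In endothelium, fibroblast markers summed to 165 CPM in 129S1/SvImJ (0 to 437 over mice) and 49.7 CPM in C57BL/6 (14.0 to 105), and microglia markers to 144 CPM (71.8 to 226) and 73.8 CPM (42.1 to 86.9). Mural markers had their highest mean in C57BL/6, as given below for B2m. The part of these markers in the H2-K1 difference was not tested. Over all nuclei the difference was 0.99 (SE 0.24, adjusted p = 0.00508, edgeR; 9.02% of genes called); it was lost without replicate 2 (adjusted p = 0.089) and without endothelium (0.13). In astrocytes the H2-K1 difference between these strains was 0.05 (SE 0.35, adjusted p = 0.988), a precision that does not show the strains to be alike.

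H2-D1, the other class I heavy chain, was called by the strain term over all nuclei and in no cluster. Over all nuclei WSB/EiJ was at 8.48, 10.3, 5.32 and 6.72 CPM (7.71 ± 2.17), C57BL/6 at 12.2, 20.5, 8.21 and 13.5 CPM (13.6 ± 5.14), and PWK/PhJ at 11.4, 13.9, 10.7 and 17.7 CPM (13.4 ± 3.16). WSB/EiJ overlapped C57BL/6 in range but not PWK/PhJ. The strain term (adjusted p = 0.0214, edgeR) and the contrast of WSB/EiJ (log2 difference -0.62, SE 0.18, adjusted p = 0.013, edgeR; 19.0% of genes called) were both lost without replicate 1, 2 or 4 and without the batch block. Without the block the adjusted p was 0.41 for the strain term.

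In endothelium, where H2-D1 was highest, A/J had the highest mean, with mice at 538, 469 and 517 CPM (508 ± 35.3, n = 3), while a PWK/PhJ mouse reached 499 CPM, and 129S1/SvImJ had the lowest at 208, 285, 129 and 274 CPM (224 ± 71.7). A/J and 129S1/SvImJ did not overlap, yet the strain term was not called (adjusted p = 0.329, edgeR). In macrophages strain means ran from 44.8 ± 42.3 CPM (NOD/ShiLtJ) to 110 ± 36.9 CPM (PWK/PhJ), with overlapping ranges. The strain term lay at the threshold (adjusted p = 0.0503, edgeR) and was past it in 4 of 12 other settings. These were DESeq2 size factors (0.0472), without replicate 3 (0.00767) and at least 25 nuclei per library (0.0117). The last left out nuclei with a UMI of the border macrophage, dendritic, B or T cell lists (0.0279). In Drd1+ neurons PWK/PhJ was at 3.06, 4.13, 6.28 and 3.36 CPM (4.21 ± 1.45), all above CAST/EiJ (1.31 to 2.57 CPM). Its contrast was called (log2 difference 0.73, SE 0.27, adjusted p = 0.0325, edgeR; 34.3% of genes called), while the strain term was not (0.0973), and it was lost without replicate 1 (adjusted p = 0.0518), 3 (0.224) or 4 (0.0821), without the batch block (0.0526) and without the 5% of nuclei with most UMIs (0.0552).

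B2m in astrocytes was highest in CAST/EiJ, at 110, 144, 44.7 and 157 CPM (114 ± 50.3). The low value came from batch 3, whose CAST/EiJ library held 23 astrocyte nuclei, and the other 3 lay above all 28 mice of the other strains. C57BL/6 was lowest at 57, 47.5, 19.5 and 51.4 CPM (43.8 ± 16.7), and the rest had means of 57.3 (129S1/SvImJ) to 85.7 CPM (NZO/HlLtJ). The strain term gave an adjusted p of 1.7e-05 (edgeR), and CAST/EiJ exceeded the other 7 by 0.97 on the log2 scale (SE 0.17, adjusted p = 5.06e-06, edgeR; 9.64% of genes called), in all 10 other settings as well. The C57BL/6 and 129S1/SvImJ pair was below the rest by a log2 difference of -0.56 (SE 0.15, adjusted p = 0.0146, edgeR), which was lost without replicate 2 (adjusted p = 0.189) or 3 (0.0809) and without the 5% of nuclei with most UMIs (0.0605). Microglia markers in astrocyte nuclei were also highest in CAST/EiJ, at 218 CPM summed (168 to 340 over mice) against strain means of 118 to 171 CPM elsewhere, and their part in the B2m value was not tested.

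Endothelial B2m ran the other way for these strains. C57BL/6 was at 930, 1451, 441 and 1142 CPM (991 ± 424) and CAST/EiJ at 379, 556 and 342 CPM (426 ± 114, n = 3). The batch 3 value was the lowest in every strain with a batch 3 endothelial library, and A/J, CAST/EiJ and WSB/EiJ had fewer than 10 endothelial nuclei in that batch and no value. The strain term was called (adjusted p = 0.0119, edgeR), as 1 of 5 members tested beside 3.23% of 4986 genes. C57BL/6 exceeded the other 7 by 0.91 on the log2 scale (SE 0.20, adjusted p = 0.0256, edgeR). The strain term was lost without the batch block (adjusted p = 0.795) and without replicate 1 (0.0843) or 2 (0.351), and the C57BL/6 contrast without the block (0.999) and without replicate 2 (0.516), 3 (0.0814) or 4 (0.132). Mural markers in these libraries averaged 3512 CPM in C57BL/6 (168 to 5603) against 1969 to 3390 CPM in the other strains, and their part was not tested.

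The opposite order in astrocytes and endothelium was tested as an interaction of strain and cluster over the 29 mice with both, a pair of clusters chosen after the values were seen. B2m was called (adjusted p = 0.0178, edgeR) where 1.03% of genes were, and H2-K1 was not (0.0673). Between astrocytes and macrophages (32 mice, 8.27% of genes called) no member was called, with adjusted p of 0.11 for H2-K1 and 0.217 for B2m. No member was called between Drd1+ neurons and macrophages (8.21% of genes called) or between Drd1+ neurons and oligodendrocytes (16.9% of genes called) either. The lowest adjusted p in the latter pairs were 0.0826 for H2-Aa and 0.233 for H2-D1.

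**Figure D4:**
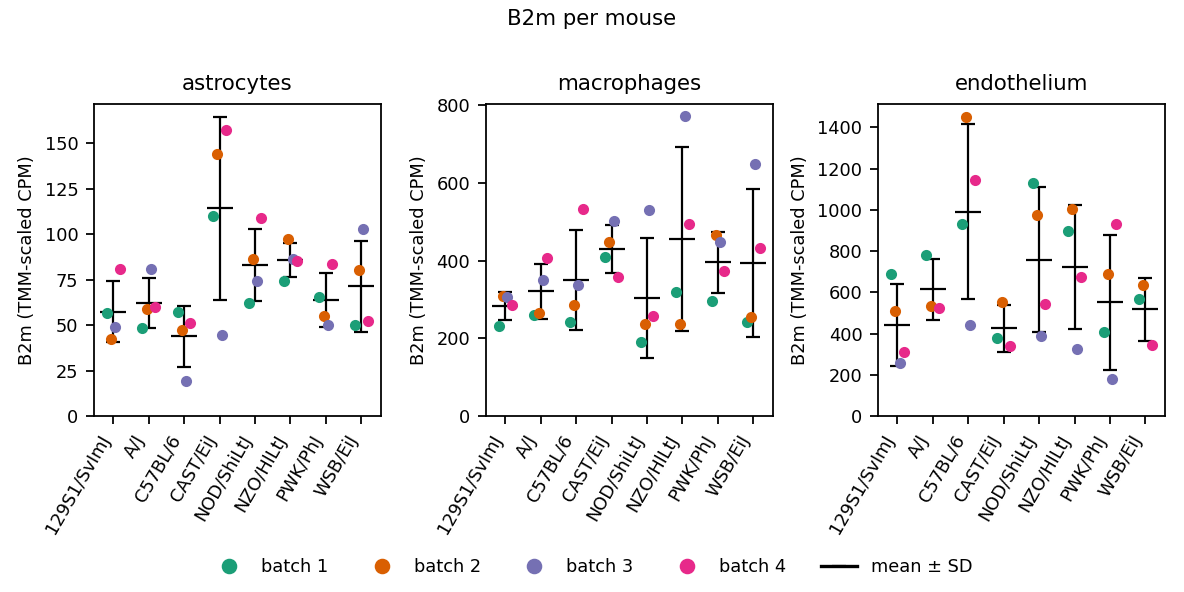
B2m (vertical axis, TMM-scaled CPM) per mouse by strain in astrocytes, macrophages and endothelium, with points coloured by batch and bars for the mean and SD. CAST/EiJ is highest in astrocytes (114 CPM) and lowest in endothelium (426 CPM), and C57BL/6 is lowest in astrocytes (43.8 CPM) and highest in endothelium (991 CPM).

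B2m over all nuclei was highest in C57BL/6 at 37.5, 57, 27.2 and 39.0 CPM (40.2 ± 12.4) and lowest in 129S1/SvImJ at 25.4, 32.8, 20.4 and 25.9 CPM (26.1 ± 5.11), with overlapping ranges. The strain term gave an adjusted p of 0.00674 and C57BL/6 a log2 difference of 0.41 (SE 0.11, adjusted p = 0.00828, edgeR). Against 129S1/SvImJ alone C57BL/6 was higher by 0.61 (SE 0.15, adjusted p = 0.00572, edgeR). These were lost without replicate 2 (adjusted p = 0.212, 0.168 and 0.123) and without the batch block (0.229, 0.128 and 0.132). Without the endothelium cluster the strain term was not called (adjusted p = 0.224) the C57BL/6 difference was -0.03 on the log2 scale, and the difference from 129S1/SvImJ was not called (0.52). In macrophages the strain means ran from 283 CPM (129S1/SvImJ) to 456 CPM (NZO/HlLtJ), and the strain term lay at the threshold (adjusted p = 0.05, edgeR), past it in 6 of 12 other settings. The strains with the highest B2m there, NZO/HlLtJ and CAST/EiJ (430 CPM), also had the highest endothelium markers in that cluster, as given for H2-K1, and the part of these markers was not tested. In oligodendrocytes WSB/EiJ, at 52.3, 40.6, 35.2 and 55.0 CPM (45.8 ± 9.42), exceeded the other 7 strains by 0.56 (SE 0.19, adjusted p = 0.0375, edgeR; 10.1% of genes called). The strain term was not called there (adjusted p = 0.139), and the contrast was lost without replicate 1 (0.208), 3 (0.0567) or 4 (0.314), without the batch block (0.0992) and without the 5% of nuclei with most UMIs (0.0688).

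Tapbp, the tapasin gene, had its lowest mean over all nuclei in 129S1/SvImJ and its highest in NZO/HlLtJ. 129S1/SvImJ also had the lowest mean in Drd1+ neurons, Drd2+ neurons, oligodendrocytes and the second Drd1+ cluster (57 UMIs, too few for a test). In other clusters the order of the means was another, but no interaction of strain and cluster was called for Tapbp in the 4 pairs tested (adjusted p 0.524 to 1, edgeR). 129S1/SvImJ was at 6.25, 9.37, 7.71 and 6.86 CPM over all nuclei (7.55 ± 1.36) and NZO/HlLtJ at 10.9, 16.1, 11.0 and 10.4 CPM (12.1 ± 2.69), with no overlap. The strain term gave an adjusted p of 0.0107, 129S1/SvImJ a log2 difference of -0.45 (SE 0.13, adjusted p = 0.0149, edgeR; 14.5% of genes called), and NZO/HlLtJ one of 0.33 (SE 0.12, adjusted p = 0.034, edgeR; 23.1% of genes called). Leaving out replicate 1 lost the strain term (adjusted p = 0.0703) and both contrasts, and the NZO/HlLtJ contrast was also lost without replicate 2 (0.315) or 3 (0.0719) and without the batch block (0.062).

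In Drd1+ neurons 129S1/SvImJ was at 3.45, 2.40, 4.33 and 4.68 CPM of Tapbp (3.71 ± 1.02), below every CAST/EiJ mouse (7.79 ± 1.10) and every PWK/PhJ mouse (7.66 ± 1.50). Its log2 difference was -0.81 (SE 0.22, adjusted p = 0.00757, edgeR; 12.3% of genes called). The strain term was called (adjusted p = 0.0082, 1 of 3 members, beside 61.7% of genes) and was lost without replicate 1 (0.0954) or 2 (0.0567), as was the contrast (0.0742 and 0.0677). C57BL/6 and 129S1/SvImJ together were lower by a log2 difference of -0.53 (SE 0.16, adjusted p = 0.0141, edgeR; 18.0% of genes called), with C57BL/6 itself at 5.68 ± 2.29 CPM, and this was lost without replicate 1 (0.0811) or 2 (0.0872). In Drd2+ neurons none of 3 members was called by the strain term (beside 55.9% of genes; adjusted p 0.19 to 0.326, edgeR). There NZO/HlLtJ, at 8.61, 7.29, 7.85 and 7.38 CPM (7.78 ± 0.61), passed its contrast narrowly (log2 difference 0.54, adjusted p = 0.044, edgeR; 18.5% of genes called), and leaving out any replicate lost the call, as did no filter on low counts (0.0795) and leaving out the 5% of nuclei with most UMIs (0.0911).

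In oligodendrocytes NZO/HlLtJ was at 17.5, 20.1, 15.7 and 20.4 CPM of Tapbp (18.5 ± 2.23), CAST/EiJ at 16.5 ± 4.06 CPM and 129S1/SvImJ at 4.43, 4.83, 8.30 and 7.78 CPM (6.33 ± 1.99). NZO/HlLtJ lay above every 129S1/SvImJ, A/J, C57BL/6, NOD/ShiLtJ and PWK/PhJ mouse and overlapped CAST/EiJ and WSB/EiJ. The strain term gave an adjusted p of 0.00866 (edgeR), as 1 of 2 members tested beside 34.8% of genes, and NZO/HlLtJ a log2 difference of 0.96 (SE 0.30, adjusted p = 0.0287, edgeR; 8.19% of genes called). Both were lost without replicate 1 (adjusted p = 0.0609 and 0.101), and the contrast also without replicate 2 (0.1003) or 3 (0.0561). Without replicate 4 Tapbp had too few counts for a test in this cluster. These values rest on 17 to 41 UMIs per strain.

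**Figure D5:**
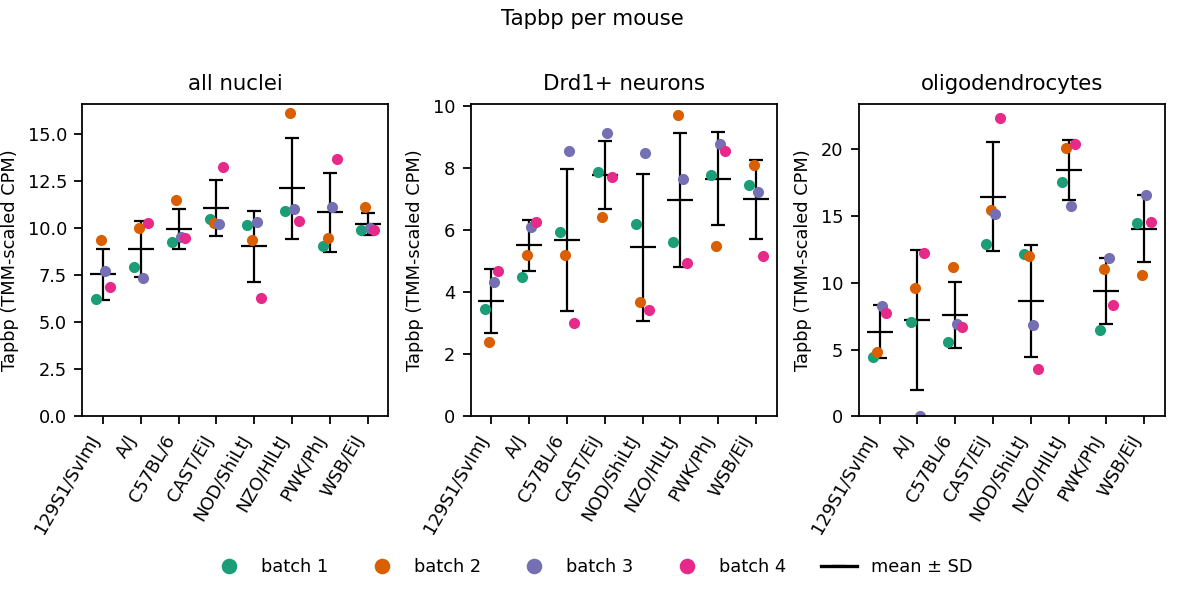
Tapbp (vertical axis, TMM-scaled CPM) per mouse by strain over all nuclei, in Drd1+ neurons and in oligodendrocytes, with points coloured by batch and bars for the mean and SD. 129S1/SvImJ has the lowest mean in each panel (7.55, 3.71 and 6.33 CPM), and NZO/HlLtJ the highest over all nuclei (12.1 CPM) and in oligodendrocytes (18.5 CPM).

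The transporter genes Tap1 and Tap2 were not called by the strain term anywhere. Tap2 over all nuclei ranged from 1.98 ± 0.59 CPM (PWK/PhJ) to 3.83 ± 0.67 CPM (NZO/HlLtJ), with an adjusted p of 0.114 (edgeR). The contrast of PWK/PhJ alone, at 1.94, 1.20, 2.14 and 2.64 CPM, gave a log2 difference of -0.65 (SE 0.26, adjusted p = 0.0451, edgeR; 36.2% of genes called), which was lost in 7 of 11 other settings. These were without replicate 1 (adjusted p = 0.125), 2 (0.179) or 4 (0.0946), without the batch block (0.0979), without the 5% of nuclei with most UMIs (0.0753), without macrophages (0.0575) and without endothelium (0.0786). With the filter on low counts in place, Tap1 had too few counts for a test of the strain term over all nuclei or in any cluster. With no filter it was tested and not called over all nuclei (adjusted p = 0.468, edgeR) or in macrophages (0.998).

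Across the 32 mice, the genes most like each called member over all nuclei differed between members (Pearson r of log2 CPM, 17175 genes compared). For B2m they were Zfp36l1 (0.844), Fn1 (0.833) and Sema3c (0.805), and for H2-D1 Cdc42ep4 (0.846), Zfp366 (0.843) and Mecom (0.83). For H2-K1 they were Txndc17 (0.689), B2m (0.688) and Trafd1 (0.668), and for Tapbp Cfap45 (0.697), Ildr2 (0.667) and Zim3 (0.656). Fn1 encodes fibronectin, and Mecom a transcription factor. The mice share batches, and the share of endothelium differed between mice (0.398 to 2.69% of nuclei), so these values are descriptions. The part of that share in the correlations was not tested.

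The rest of the pathway was described from 47 listed genes, 43 of them in the matrices. Over all nuclei 31 had enough counts and 13 were called by the strain term, below the 66.7% of all genes; the term has no direction. The calls were 4 of 6 class I-like genes, 1 of 9 genes of peptide supply and loading, 4 of 6 class II accessory genes and 4 of 10 regulators. H2-T22, a nonclassical class I gene, was highest in WSB/EiJ (12.2 ± 3.15 CPM), above C57BL/6 (5.74 CPM) and lowest in A/J (2.02 ± 0.61 CPM; adjusted p = 2.43e-11, edgeR). H2-T24 was highest in C57BL/6 (4.09 ± 0.58 CPM) and lowest in A/J (0.99 ± 0.38 CPM; adjusted p = 2.65e-06, edgeR). Both belong to a family of close copies and are uncertain for the reason given for H2-K1.

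Cd86, a costimulatory ligand for T cells, was highest in PWK/PhJ (6.02 ± 0.85 CPM) and lowest in CAST/EiJ (1.88 ± 0.78 CPM; adjusted p = 5.58e-06, edgeR). Cd1d1, which presents lipids, had no UMI in any of the 4 PWK/PhJ mice and was highest in NZO/HlLtJ (1.54 ± 0.66 CPM; adjusted p = 7.54e-05, edgeR). Ifngr2, a chain of the interferon gamma receptor, had its top value in NOD/ShiLtJ, 14.6 ± 3.82 CPM, and its lowest in CAST/EiJ, 9.34 ± 1.31 CPM (adjusted p = 0.000251, edgeR).

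In macrophages 9 of the listed genes had enough counts and 4 were called, beside 24.8% of all genes. Ifngr1, the other chain of the receptor, was at 450 ± 198 CPM in WSB/EiJ and 444 CPM in CAST/EiJ against 175 ± 20.7 CPM in A/J (adjusted p = 2.6e-09, edgeR). Macrophage Cd86 had the same extremes as over all nuclei, at 312 ± 45 CPM in PWK/PhJ and 128 ± 51.5 CPM in CAST/EiJ (adjusted p = 0.000241, edgeR). Calr, which encodes calreticulin of the loading complex, was highest in CAST/EiJ (398 ± 107 CPM) and lowest in C57BL/6 (189 ± 24.9 CPM; adjusted p = 0.00261, edgeR). Ctss, the protease that trims the invariant chain, was highest in PWK/PhJ (2223 ± 769 CPM) and lowest in CAST/EiJ (1158 ± 468 CPM; adjusted p = 0.00484, edgeR). The endothelium markers in CAST/EiJ macrophages (372 CPM against 76.0 CPM in C57BL/6 and 65.2 CPM in A/J) moved with Calr and Ifngr1 in these pairs. In WSB/EiJ, the highest strain for Ifngr1, these markers did not exceed the 76.0 CPM of C57BL/6. Their part was not tested. CAST/EiJ also had the lowest share of macrophages among its nuclei (3.11 ± 0.64%) and PWK/PhJ the highest (5.83 ± 0.52%), which bears on the sums over all nuclei.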

How the data were processed

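Single-nucleus RNA counts of mouse striatum were used from 4 pools (batches) of 8 mice. The authors deposited raw UMI counts per gene and barcode, unnormalized per the file descriptions and the whole-number values; Cell Ranger ARC 2.0.0, bcl2fastq 2.20.0.422 and mm10 (GRCm38) are named in the submitters' processing notes, with no role given. Whether reads in introns or reads that match several genes were counted is not given in the sources used here. Per the descriptions the authors deposited with the files, Demuxlet assigned strains from RNA and from ATAC reads, barcodes were kept with more than 200 and fewer than 7500 detected genes and under 15 percent mitochondrial reads, DoubletFinder calls and a removal on biological relevance followed, and clusters were annotated; these annotations and the authors' list of accessible regions, which has positions and no signal, were used as deposited.

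Nuclei with an annotated cluster were summed per mouse, over all clusters and by cluster, and libraries with 10 or more nuclei were kept. The 9 clusters with such libraries from 3 or more mice of each strain were tested. The tool was edgeR 4.0.16 in R 4.3.3: TMM scaling, filterByExpr by strain, and the quasi-likelihood test of the strain term (7 degrees of freedom) or a contrast, with batch as a block and Benjamini-Hochberg adjustment over all genes. A batch number marks a shared pool and library per the labels' protocols, so same-numbered mice are paired; a mouse is 1 animal per the design text. DESeq2 1.42.0 was an alternative. Printed CPM by strain are counts per 1000000 of the library total times the TMM factor, and CPM by cluster are unscaled. Thinned shares are expectations computed from each nucleus, without nuclei under 1000 UMIs. Intervals on shares are exact (Clopper-Pearson, 95%). The tests were also run on simulated counts, with the same scatter setting for every gene and no batch effect beyond depth. That run does not check the tests under other batch differences. Doublets were treated only by the authors' calls.

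Named were all 10 members, the listed pathway genes called over all nuclei or in macrophages with the 5 smallest p, and the most correlated genes. Markers of microglia, border macrophages, dendritic cells, B cells, T cells, endothelium, mural cells, fibroblasts, astrocytes, oligodendrocytes, their precursors and Drd1+ and Drd2+ neurons were summed. In macrophages the dendritic list summed to 24.1 CPM, the B cell list to 24.1, the T cell list to 8.52, the border macrophage list to 119, the fibroblast list to 2.76, the astrocyte list to 1356 (4877 in 129S1/SvImJ), the oligodendrocyte list to 4098, the precursor list to 9.28 and the Drd1+ and Drd2+ lists to 141 and 278 CPM. The members, lists and tests were chosen with earlier results of these data known. Gene positions and promoters are from RefSeq tables of GRCm38.p6. Python 3.11.15 was used for sums and sequences.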

Additional observations from a re-analysis of the deposited data

Results flagged for a closer look

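Of 77 groups of 4 mice examined for called members, 7 held a mouse whose gap to its nearest neighbour was large for the group's range (Dixon's criterion, which chance meets in about 1 in 20 groups). For Tapbp over all nuclei these were the batch 2 mouse of C57BL/6 at 11.5 CPM (the others at 9.27 to 9.51 CPM), the batch 4 mouse of CAST/EiJ at 13.3 CPM (10.2 to 10.5), the batch 2 mouse of NZO/HlLtJ at 16.1 CPM (10.4 to 11.0) and the batch 2 mouse of WSB/EiJ at 11.1 CPM (9.87 to 10.0). For H2-K1 over all nuclei it was the batch 4 mouse of NOD/ShiLtJ at 5.15 CPM (9.33 to 9.90). For H2-D1 over all nuclei they were the batch 2 mouse of 129S1/SvImJ at 14.8 CPM (9.42 to 9.65) and the batch 3 mouse of A/J at 6.14 CPM (14.8 to 16.5). That A/J mouse had the smallest share of endothelium among A/J mice, 0.398% of its nuclei. The WSB/EiJ mouse with the smallest share of its strain, 0.42%, was not flagged for H2-D1 but had the lowest H2-D1 of its strain. The part of this share in either value was not tested.

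B2m differed between astrocytes and endothelium in its response to strain, by the test of the interaction itself (adjusted p = 0.0178, edgeR quasi-likelihood test, 29 mice), in a pair of clusters chosen after the values were seen. The interaction was not rerun with a batch left out. The endothelial strain term of B2m was lost without replicate 1 (adjusted p = 0.0843, edgeR) or 2 (0.351).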

How the results depend on the processing

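Over all nuclei 4 of 6 members were called by the strain term, beside 66.7% of all genes tested. The count was 2 of 6 without the replicate block (52.8% of genes), 2 to 4 of 6 or 7 when a batch was left out (51.9 to 58.0%), and 5 of 10 with no filter on low counts (43.5%). It was 3 or 4 of 5 or 6 under every other alternative run (65.3 to 67.4%). Shares of genes within clusters and in the contrasts below pool every cluster a setting ran in, also those without a member tested. Within clusters the 6 calls in 23 tests (35.2% of genes) became 4 in 23 without the replicate block (29.0%). They were 2 to 7 in 19 to 23 when a batch was left out (27.3 to 29.9%). With no filter on low counts they were 9 in 86 (13.7%), and with at least 25 nuclei per library 7 in 18 (38.0%). The other settings run in all 9 clusters gave 7 or 8 in 19 to 23 (32.6 to 36.2%). Leaving out macrophage nuclei with a UMI of the border macrophage, dendritic, B or T cell lists, in that cluster alone, gave 2 in 3 (24.9%). Calls of a strain against the other 7 went from 18 in 232 tests (13.3% of genes) to 9 in 232 without the replicate block (10.0%) and 7 to 11 in 200 to 240 when a batch was left out (9.41 to 10.5%), so all genes lost calls in these settings too. The contrast of C57BL/6 and 129S1/SvImJ against the other 6 strains had 4 calls in 29 tests (11.8% of genes), 2 to 4 when a batch was left out (7.58 to 9.17%) and 7 in 96 with no filter on low counts (4.21%). No member gained an interaction of strain and cluster under the alternatives run. Interactions were rerun only with DESeq2 size factors and without mice as a block, and not with a batch left out. The thinned share of endothelial nuclei with B2m went from 40.9 to 25.7% at 500 UMIs, as fewer UMIs were kept. The contrast of C57BL/6 in B2m over all nuclei turned from 0.41 to -0.0272 (log2) without the endothelium cluster. Of the tests of the strain term for single members under alternatives, 275 kept their side of the threshold, 20 lost a call and 14 gained one. For single contrasts that were called, 182 kept the call and 77 lost it with the same direction; the call of B2m that turned, above, was lost as well. The alternatives leaving out the endothelium cluster or nuclei with 8 or more class II UMIs, the pairs with astrocytes and the contrast between C57BL/6 and 129S1/SvImJ were chosen after seeing the data. At least 25 nuclei per library could not be run for endothelium and polydendrocytes, for lack of mice, and DESeq2 was not run for single strains. Depth limited Tap1, H2-Aa, H2-Ab1 and H2-Eb1, which had too few counts for a test of the strain term with the filter in place, except H2-Ab1 over all nuclei without replicate 2 or 3 (adjusted p = 0.652 and 0.162, not called).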
